A study of Rattus norvegicus with 18 samples.

Results

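The genes described here are 37 markers of macrophages, other myeloid cells, antigen-presenting cells and lymphocytes, read in the extensor digitorum longus (EDL), a fast muscle of the rat hindlimb. They were chosen by name: a member is a probe set whose single gene symbol is one of the 37, with 1 probe set kept per gene, the one of highest mean. All 37 were on the array. Il10ra, Cd8a and Cd2, with means of 5.00, 5.08 and 5.12 log2, lay below the background filter of 5.28 log2, which left 34 markers among 12642 genes tested, out of 16856 genes with 1 symbol.

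The animals were 18 adult female Sprague-Dawley rats of the F2 generation. A group is named by the diet of the grandfather (F0), which defines a lineage, and then by the female's own diet over 12 weeks, so that chow/high-fat means a chow-fed grandfather and a high-fat diet eaten by the female herself. The diets were chow or a high-fat diet with 42/45% of its energy from fat. The chow lineage had 5 females on each own diet and the high-fat lineage had 4 on each, every one with an array of her own. Neither the number of grandfathers behind a lineage nor the kinship of the females was given in the sources used here, and p-values for the grandpaternal diet count the females as unrelated. Values are log2(intensity + 16) after quantile normalization, and a difference of group means is given in log2 units. Because each probe set has its own brightness, levels of different genes are not compared.

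Skeletal muscle houses resident macrophages in the connective tissue around its fibres, where they clear dead cells and matrix fragments by endocytosis and lysosomal digestion. Blood monocytes join them through the chemokine Ccl2 and its receptor Ccr2, and antigen-presenting cells and lymphocytes pass through in smaller numbers. High-fat feeding is best known for drawing macrophages into adipose tissue, and reports on muscle vary more. In whole muscle, fewer cells of a type and less RNA per cell cannot be told apart.

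Genes of muscle and of other leukocytes were read first. Of the listed fast muscle genes, 5 were measured (Acta1, Ckm, Pvalb, Tnni2 and Tnnt3), and their summed normalised intensity lay between 36200 and 39600 in all 18 animals. Quantile normalization gives every array the same set of values, so a narrow range for bright genes is partly built in. It does not test the tissue label. The sum of the 6 slow muscle genes ran from 2900 to 13800. All 10 markers of the macrophage class passed the filter, with means from 5.79 (Aif1) to 7.78 (Csf1r), but some markers of other leukocytes did not: S100a8, S100a9, Mpo, Camp, Cxcr2 and Ltf of neutrophils were near background, as were Cd3d, Cd247, Cd28, Lck and Prf1 of T and NK cells and Ms4a1 of B cells. Of the listed genes on the array, 6 of 11 of T and NK cells (Cd3g and Cd5 among them), 3 of 4 of B cells (Cd79b, Pax5 and Blk) and 1 of 7 of neutrophils (Elane) passed. The cytokine genes Tnf, Il6, Il10, Il18, Arg1 and Il1rn were near background too. So were macrophage and myeloid genes outside the member list: Vsig4, Cd5l, Slc11a1, Tlr2, Clec4a, Cd180, Cd40 and Cd80. Whether a gene passes also depends on the brightness of its probe set. The deposited array medians ran from 55.02 to 73.97, a span of 0.427 log2, which the normalization removes.

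Many myeloid genes share a regulator, the Ets-family factor PU.1, itself encoded by the marker Spi1. To show this shared layout, promoters of the markers were searched on both strands for GAGGAAG, a purine-rich form of a PU.1 site that holds the GGAA core common to all Ets factors. RefSeq promoters, from 250 bases before to 50 after the start (300 bases, GRCr8), were searched for 23 of the 37 markers, all but Msr1, Siglec1, Lgals3, Aif1, C1qc, Itgb2, Tyrobp, Fcer1g, Spi1, Lyn, Ccl2, Lcp1, Itgal and Cd4. The letters occurred in 9 of these (39.1%), namely Itgam, Ctss, Cd53, Laptm5, Adgre1, Cd68, Mrc1, Cd14 and Csf1r, and in 4149 of 33469 promoters in all (12.4%). A match is a description of letters and no evidence of binding. The 5 stretches printed here are the 80 bases just before the start of the 5 markers with a match in those bases, and they include Ctss and Cd53, to which the diet results return. Capitals mark the match, which in all 5 lies on the strand opposite the gene and so reads CTTCCTC. They lie at chr2:185775316-185775395 (+ strand, Ctss), chr2:197087897-197087976 (- strand, Cd53), chr1:192089512-192089591 (+ strand, Itgam), chr5:148371800-148371879 (+ strand, Laptm5) and chr17:82157645-82157724 (+ strand, Mrc1), written 5′ to 3′ along the gene.
Ctss: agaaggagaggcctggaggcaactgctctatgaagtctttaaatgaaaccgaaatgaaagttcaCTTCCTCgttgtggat
Cd53: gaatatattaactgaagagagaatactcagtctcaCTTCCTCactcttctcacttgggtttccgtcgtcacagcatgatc
Itgam: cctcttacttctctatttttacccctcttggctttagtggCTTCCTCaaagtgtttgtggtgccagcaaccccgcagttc
Laptm5: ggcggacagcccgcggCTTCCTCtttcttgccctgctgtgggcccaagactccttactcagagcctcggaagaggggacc
Mrc1: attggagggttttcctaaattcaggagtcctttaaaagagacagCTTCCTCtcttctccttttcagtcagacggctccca
The distance differed between them: with -1 the base just before the start, the last base of the match was at -10 in Ctss, -30 in Mrc1, -34 in Itgam, -39 in Cd53 and -58 in Laptm5.

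The first question was what 12 weeks of the female's own high-fat diet did to these markers. Averaged over the lineages, 30 of the 34 read lower on the high-fat diet, with a median difference of -0.16 log2, against 51.7% of all genes lower and a median of -0.0028. No marker passed an adjusted p of 0.05 (0 of 34, where 0.0158% of all genes passed), so none is called changed. At an unadjusted limma p under 0.05 there were 14 markers, all lower (41.2%), against 3.44% of all genes lower at that limit: Cd68, Mrc1, Cd163, Csf1r, Msr1, Ctss, Cybb, Itgam, Itgb2, Ccr2, Cd53, Laptm5, Lcp1 and Cd4. The 4 that read higher were Lyn, Ccl2, Cd86 and Cd3e, by 0.0087 to 0.085. Differences were small: the widest, in Ctss, was 1.32-fold. The smallest adjusted p in limma was 0.216, also for Ctss. The markers were chosen with earlier results of these data known, and 1 animal can move many of them. The shares therefore describe the list and do not test it.

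**Figure D1:**
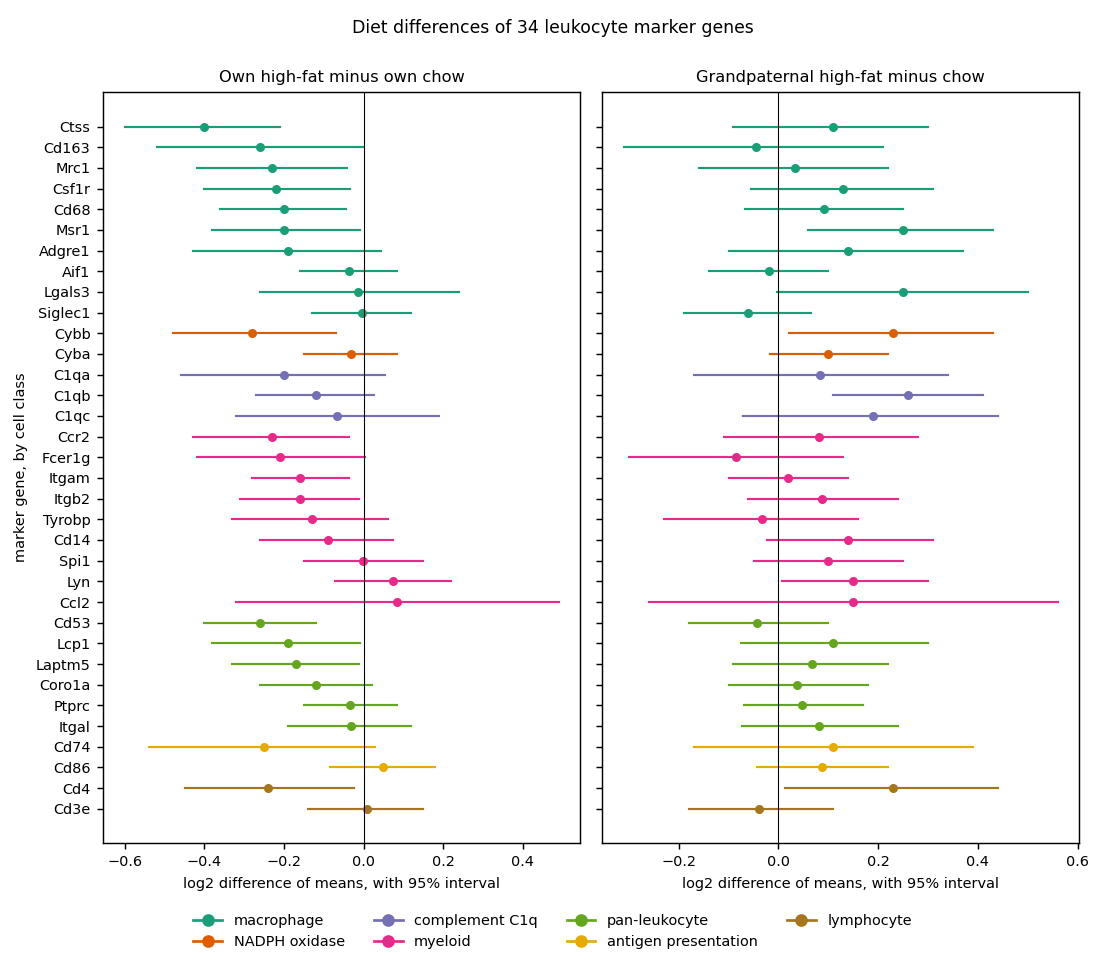
Log2 difference of each of the 34 markers, in rows ordered by cell class, for the female's own diet averaged over lineages (left, high-fat minus chow) and for the grandfather's diet averaged over own diets (right, high-fat minus chow). Points are differences of group means from limma over 18 arrays and bars are 95% confidence intervals; 30 of 34 points lie below 0 on the left and 27 of 34 above 0 on the right, and the panels have their own scales.

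The macrophage class, of scavenger receptors, lysosomal proteins and identity markers, had 10 members and all 10 read lower on the high-fat diet (median -0.20, from -0.40 to -0.0048), with 0 called and 6 under an unadjusted p of 0.05. For this and each later class, the shares over all genes were 51.7% lower, 3.44% lower at that limit and 0.0158% called. Ctss encodes cathepsin S, a lysosomal protease that trims the invariant chain of MHC class II. Its level was 7.55, 7.45, 6.97, 7.46 and 7.55 in the chow/chow females and 6.92, 7.01, 6.80, 6.93 and 7.38 in the chow/high-fat females. In the other lineage it was 7.67, 7.49, 7.77 and 7.15 at own chow and 7.13, 7.04, 7.04 and 7.18 at own high-fat. Most chow-fed females were above most high-fat-fed females in both lineages, and the groups overlapped through 1 low chow/chow and 1 low high-fat/chow animal. The difference was -0.40 averaged (95% confidence interval -0.60 to -0.21, adjusted p = 0.216 in limma), -0.39 in the chow lineage and -0.42 in the high-fat lineage.

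Cd68, a glycoprotein of macrophage lysosomes, read 5.89, 5.95, 5.93, 6.29 and 5.89 in chow/chow and 5.74, 6.08, 5.76, 6.03 and 5.89 in chow/high-fat females. It read 6.18, 6.19, 6.34 and 6.06 in high-fat/chow and 6.16, 5.67, 5.74 and 5.94 in high-fat/high-fat females. The own-diet groups overlapped in the chow lineage and, through 1 high-fat-fed animal, in the other. The difference was -0.09 (interval -0.30 to 0.12) in the first and -0.31 (interval -0.55 to -0.079, adjusted p = 0.434 in limma) in the second, and the interaction, which tests the gap between these, gave an adjusted p of 0.789.

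Mrc1, the mannose receptor CD206 of tissue-resident macrophages, read 7.65, 7.58, 7.06, 7.57 and 7.64 in chow/chow and 7.32, 7.26, 7.14, 7.26 and 7.69 in chow/high-fat animals. Its levels in the high-fat lineage were 7.69, 7.73, 7.60 and 7.37 at own chow and 7.38, 7.14, 7.17 and 7.53 at own high-fat. Each group had 1 or more animals inside the range of the other diet. The averaged difference was -0.23 (interval -0.42 to -0.043, adjusted p = 0.689 in limma).

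Cd163 encodes the scavenger receptor for haptoglobin-bound haemoglobin. It read 8.11, 7.99, 7.30, 7.49 and 7.68 in chow/chow females, a wide range, and 7.41, 7.52, 7.21, 7.22 and 7.67 in chow/high-fat females. In the other lineage the values were 8.15, 7.38, 7.71 and 7.25 at own chow and 7.64, 7.46, 7.12 and 7.41 at own high-fat. The 3 highest animals of 18 were chow-fed, while the remaining chow-fed animals lay within the high-fat range or close to it. The averaged difference was -0.26 (interval -0.52 to -0.00037, adjusted p = 0.741 in limma), and -0.17 without high-fat/chow replicate 1, the highest animal.

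Msr1, the class A scavenger receptor for modified lipoproteins, read 5.94, 5.63, 5.69, 6.02 and 5.92 in chow/chow and 5.41, 5.61, 5.54, 6.02 and 5.74 in chow/high-fat females. It read 5.98, 6.26, 6.33 and 5.86 in high-fat/chow and 6.00, 5.61, 5.99 and 5.95 in high-fat/high-fat females. All 4 groups overlapped with at least 1 other. The own-diet difference was -0.20 (adjusted p = 0.727 in limma).
Of the remaining macrophage markers, Csf1r, the receptor for the growth factor that keeps macrophages alive, differed by -0.22 and Adgre1, which encodes F4/80, by -0.19. Aif1 (-0.036), Lgals3 (-0.013) and the sialic acid receptor Siglec1 (-0.0048) were close to 0.

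Cybb and Cyba encode the membrane subunits of the phagocyte NADPH oxidase, which makes superoxide. Cybb read 7.04, 7.02, 6.51, 7.25 and 7.29 in chow/chow and 6.82, 6.79, 6.58, 7.03 and 7.09 in chow/high-fat females. In the high-fat lineage it read 7.32, 7.47, 7.47 and 7.20 at own chow and 7.08, 6.68, 7.12 and 7.02 at own high-fat. The own-diet groups did not overlap in the high-fat lineage and overlapped in the chow lineage. The difference was -0.39 (interval -0.70 to -0.083, adjusted p = 0.456 in limma) in the high-fat lineage and -0.16 in the chow lineage, with an interaction adjusted p of 0.844. Cyba, whose protein is also made outside phagocytes, differed by only -0.033 averaged over lineages.

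C1qa, C1qb and C1qc encode the chains of complement C1q, a product of tissue macrophages that tags debris. C1qa read 7.67, 7.68, 6.86, 7.61 and 7.73 in chow/chow and 6.98, 7.54, 7.08, 7.06 and 7.77 in chow/high-fat females. It read 7.57, 7.48, 7.77 and 7.47 in high-fat/chow and 7.52, 7.18, 7.27 and 7.59 in high-fat/high-fat females. The chow-lineage groups spread over 6.86 to 7.73 and 6.98 to 7.77, far wider than the difference between them. C1qc also spread widely in that lineage, at 6.94, 6.90, 6.11, 6.82 and 6.96 in chow/chow and 6.42, 7.07, 6.56, 6.63 and 6.95 in chow/high-fat females. Its high-fat lineage values were 6.82, 6.92, 7.17 and 6.99 at own chow and 7.27, 6.59, 6.61 and 6.99 at own high-fat. Again 1 chow/chow animal was far below the rest of her group. All 3 chains read lower on the own high-fat diet (C1qa -0.20, C1qb -0.12, C1qc -0.066), and 0 of 3 had an unadjusted limma p under 0.05.

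The myeloid class of adaptors, receptors, integrins and monocyte recruitment genes had 9 members, of which 7 read lower (median -0.13), 3 of them at an unadjusted p under 0.05 and 0 called. Itgam, the CD11b chain of complement receptor 3, read 5.43, 5.45, 5.41, 5.61 and 5.49 in chow/chow and 5.27, 5.46, 5.09, 5.41 and 5.46 in chow/high-fat females. It read 5.55, 5.46, 5.64 and 5.42 in high-fat/chow and 5.52, 5.33, 5.18 and 5.32 in high-fat/high-fat females. These levels lie near the background filter, where a true fold is understated. The difference was -0.16 (interval -0.28 to -0.036, adjusted p = 0.651 in limma), and that of its partner Itgb2 was also -0.16.

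Tyrobp encodes DAP12, an adaptor through which many myeloid receptors signal. It read 7.42, 7.14, 6.83, 7.55 and 7.51 in chow/chow and 6.86, 7.10, 6.99, 6.98 and 7.30 in chow/high-fat females. Its values were 6.93, 7.15, 7.39 and 7.12 in high-fat/chow and 7.04, 6.96, 7.19 and 7.31 in high-fat/high-fat females. The 3 highest of 18 animals were chow/chow, and the high-fat lineage groups covered nearly the same range. The difference was -0.24 (interval -0.50 to 0.014, adjusted p = 1 in limma) in the chow lineage and -0.022 in the high-fat lineage.

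Ccr2, the receptor that brings monocytes out of the blood, read 6.71, 6.17, 6.75, 6.64 and 6.51 in chow/chow and 6.18, 6.21, 6.10, 6.35 and 5.95 in chow/high-fat females. It read 6.58, 6.31, 6.54 and 6.46 in high-fat/chow and 6.09, 6.20, 6.54 and 6.79 in high-fat/high-fat females. In the chow lineage, 4 of 5 chow-fed females lay above every high-fat-fed female; in the high-fat lineage the high-fat-fed females were split around the chow-fed ones. The difference was -0.40 in the chow lineage (interval -0.66 to -0.14, adjusted p = 0.956 in limma) and -0.069 in the high-fat lineage (interval -0.36 to 0.22). The interaction was 0.33 (interval -0.062 to 0.72, adjusted p = 0.749 in limma), so a difference between the lineages was not shown. Its ligand Ccl2 differed by 0.085 (interval -0.32 to 0.49), with the widest spread within groups of any marker, an SD of 0.476.
Lyn, a Src-family kinase of myeloid and B cells, read 6.62, 6.45, 6.65, 6.61 and 6.52 in chow/chow and 6.61, 6.39, 6.59, 6.71 and 6.67 in chow/high-fat females. It read 6.53, 6.94, 6.71 and 6.52 in high-fat/chow and 6.60, 6.64, 6.94 and 7.02 in high-fat/high-fat females. The own-diet difference was 0.075, opposite in sign to most of the class, with an interval of -0.072 to 0.22. Spi1, which encodes PU.1, differed by -0.0015.

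The pan-leukocyte class kept 6 of its 7 members, all 6 lower on the own high-fat diet (median -0.14), 3 with an unadjusted p under 0.05 and 0 called. Cd53, a tetraspanin found on nearly all leukocytes, read 6.74, 6.61, 6.71, 6.83 and 6.78 in chow/chow and 6.55, 6.47, 6.50, 6.55 and 6.56 in chow/high-fat females. It read 6.68, 6.98, 6.79 and 6.50 in high-fat/chow and 6.45, 6.14, 6.66 and 6.47 in high-fat/high-fat females. The own-diet groups did not overlap in the chow lineage and overlapped in the high-fat lineage. The averaged difference was -0.26 (interval -0.40 to -0.12, adjusted p = 0.333 in limma).

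Ptprc, the common leukocyte antigen CD45, showed no such difference. It read 7.50, 7.79, 7.57, 7.61 and 7.44 in chow/chow and 7.61, 7.51, 7.51, 7.83 and 7.69 in chow/high-fat females. It read 7.65, 7.74, 7.77 and 7.69 in high-fat/chow and 7.70, 7.67, 7.53 and 7.50 in high-fat/high-fat females. The groups overlapped, and the difference was -0.034 (interval -0.15 to 0.084). A dimmer probe set of the same gene, with a mean of 6.96, gave -0.15, so the 2 probe sets of Ptprc do not give 1 size.

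Cd74, the invariant chain of MHC class II, read 9.17, 9.37, 9.32, 9.89 and 9.92 in chow/chow and 8.59, 9.68, 9.11, 9.49 and 9.65 in chow/high-fat females. It read 9.36, 9.73, 9.82 and 9.77 in high-fat/chow and 9.38, 9.34, 9.34 and 9.50 in high-fat/high-fat females. Animals of the chow lineage spread widely, from 8.59 to 9.68 at own high-fat. The difference was -0.25 (interval -0.54 to 0.029, adjusted p = 0.794 in limma), while the costimulatory ligand Cd86 differed by 0.048.

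Among lymphocyte markers only Cd4 and Cd3e were above the filter. Cd4 marks helper T cells and, in the rat, monocytes and macrophages as well. It read 8.20, 8.12, 7.90, 8.16 and 8.46 in chow/chow and 7.73, 7.63, 7.50, 8.17 and 7.94 in chow/high-fat females. Its high-fat lineage values were 8.36, 8.55, 8.22 and 7.91 at own chow and 7.91, 8.04, 8.36 and 8.33 at own high-fat. In the chow lineage 3 of 5 high-fat-fed females lay below every chow-fed female, and in the high-fat lineage the groups overlapped. The difference was -0.37 in the first (interval -0.66 to -0.089, adjusted p = 0.995 in limma), -0.10 in the second, and the interaction was 0.27 (adjusted p = 0.807 in limma). A second probe set of Cd4, with a mean of 5.01 below the background filter, gave -0.022 in the chow lineage and 0.093 in the high-fat lineage.
Cd3e, a chain of the T cell receptor complex, read 6.13, 5.75, 6.11, 5.90 and 6.00 in chow/chow and 5.96, 6.34, 6.03, 5.92 and 5.75 in chow/high-fat females. It read 5.93, 6.01, 6.04 and 5.83 in high-fat/chow and 5.87, 5.94, 6.03 and 5.95 in high-fat/high-fat females. The 4 groups shared 1 range, with a difference of 0.0087 (interval -0.14 to 0.15).

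**Figure D2:**
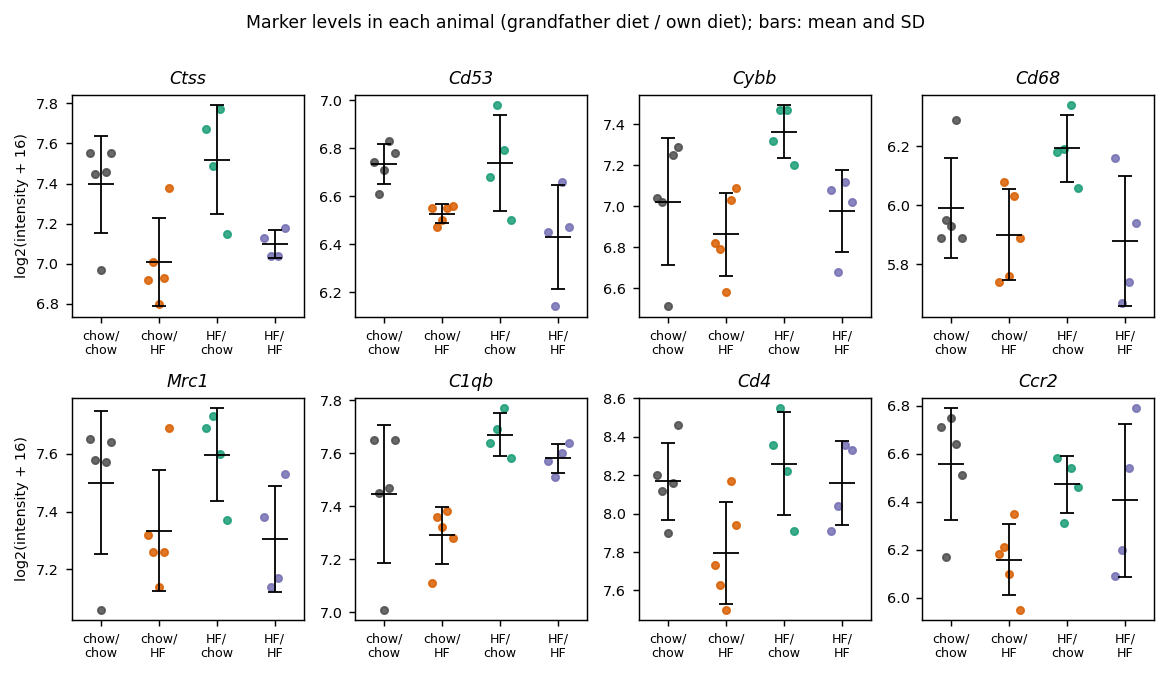
Levels of 8 markers in each animal, as log2(intensity + 16), with the grandfather's diet before the slash and the own diet after it (HF, high-fat). Each point is 1 female, the long bar is the group mean and the whiskers are 1 SD (n = 5, 5, 4 and 4). The vertical scale differs by gene. Cd53 in the chow lineage, Cybb between own diets in the high-fat lineage and C1qb between lineages at own high-fat show no overlap. In these 3 comparisons groups were apart in the same direction for 2.94%, 8.82% and 2.94% of markers. Over all genes the shares were 0.34%, 2.06% and 2.37%.

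Taking each lineage alone, the own high-fat diet went with lower values in 25 of 34 markers in the chow lineage (median -0.15; all genes 51.4% lower) and in 31 of 34 in the high-fat lineage (median -0.14; all genes 50.4% lower). No marker was called in either (0 of 34 each, with 0% of all genes called). At an unadjusted p under 0.05 there were 4 markers in the chow lineage (11.8%; all genes 2.31% lower at that limit) and 5 in the high-fat lineage (14.7%; all genes 4.4%), each of them lower. Groups that did not overlap, with the high-fat-fed females below, were seen for Cd53 in the chow lineage (2.94% of markers; 0.34% of all genes) and for Csf1r, Aif1 and Cybb in the high-fat lineage (8.82%; 2.06% of all genes). Ctss and Cd53 were under the unadjusted limit in both lineages. The sign was lower in both lineages for 25 of 34 markers (73.5%), against 24.8% of all genes.

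The second question was whether the grandfather's diet went with a difference in the granddaughters. Averaged over own diets, 27 of 34 markers read higher in the high-fat lineage (median 0.09; all genes 48.8% higher). No marker was called (0 of 34; 0.198% of all genes). At an unadjusted p under 0.05 were Msr1 (0.25), Cybb (0.23), C1qb (0.26), Lyn (0.15) and Cd4 (0.23), all higher, 14.7% of markers against 7.75% of all genes. The smallest adjusted p, 0.107 in limma, belonged to C1qb.

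C1qb read 7.65, 7.45, 7.01, 7.47 and 7.65 in chow/chow and 7.64, 7.69, 7.77 and 7.58 in high-fat/chow females. Among high-fat-fed females it read 7.11, 7.36, 7.32, 7.38 and 7.28 in the chow lineage and 7.57, 7.51, 7.60 and 7.64 in the high-fat lineage. At own chow the groups overlapped, and at own high-fat all 4 females of the high-fat lineage lay above all 5 of the chow lineage. C1qb was the only marker whose groups were apart there (2.94% of markers, 2.37% of all genes), a share near that of all genes. The difference was 0.22 (interval 0.013 to 0.44, adjusted p = 0.553 in limma) at own chow and 0.29 (interval 0.077 to 0.50, adjusted p = 0.216) at own high-fat. Without chow/chow replicate 3, the lowest animal, the first of these was 0.12. The other chains of C1q differed by 0.084 (C1qa) and 0.19 (C1qc) averaged over own diets.

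At own chow, 27 of 34 markers read higher in the high-fat lineage (median 0.10; all genes 49.5% higher), 0 were called (0.00791% of all genes) and 3 were under an unadjusted p of 0.05: Cybb (0.34), Msr1 (0.27) and C1qb (8.82% of markers higher; 4.34% of all genes). Cybb was 7.20 to 7.47 in high-fat/chow and 6.51 to 7.29 in chow/chow females, so that 2 chow/chow animals reached the range of the other group. Without chow/chow replicate 3 the difference was 0.21 for Cybb and 0.12 for C1qb, against 0.22 for C1qb with it. At own high-fat, 24 of 34 read higher (median 0.081; all genes 50.4% higher) and 0 were called (0% of all genes). There C1qb and Cd4 were under the unadjusted limit (5.88% of markers; 6.68% of all genes), a share near that of all genes. Cd4 differed by 0.36 (interval 0.062 to 0.67, adjusted p = 0.273 in limma) and Lyn by 0.21 (interval -0.002 to 0.41). The second probe set of Cd4, below the filter, gave 0.12. A higher value at both own diets was found in 21 of 34 markers (61.8%), against 29% of all genes.

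A comparison of single groups for the own diet and one for the grandpaternal diet share a group of animals. The signs of such a pair cannot be read as separate results. The averaged comparisons of the own and the grandpaternal diet both use all 18 animals. The interaction, which asks whether the own-diet difference varied with the grandfather's diet, had 22 of 34 markers below 0 and a median of -0.036 (all genes 48.9% below 0). None was called (0 of 34; 0% of all genes), and 0 had an unadjusted limma p under 0.05, where 863 genes of 12642 (6.83%) did. The largest were Ccr2 (0.33) and Cd4 (0.27).

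In the order of the group means, high-fat/chow was highest for 24 of 34 markers and lowest for 0, and chow/high-fat was lowest for 20. Over all genes these groups were highest and lowest in 25.9% and 25.3%. Neighbours in that order were often within their spread: the median of a female's 34 centred markers averaged 0.13 ± 0.084 (SD, n = 4) in high-fat/chow, 0.024 ± 0.14 (n = 5) in chow/chow, -0.023 ± 0.069 (n = 4) in high-fat/high-fat and -0.094 ± 0.11 (n = 5) in chow/high-fat. The ranges of these medians were 0.034 to 0.20, -0.19 to 0.15, -0.12 to 0.033 and -0.22 to 0.043 in the same order, so the high-fat/chow range overlapped only that of chow/chow and, at its lower end, that of chow/high-fat.

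**Figure D3:**
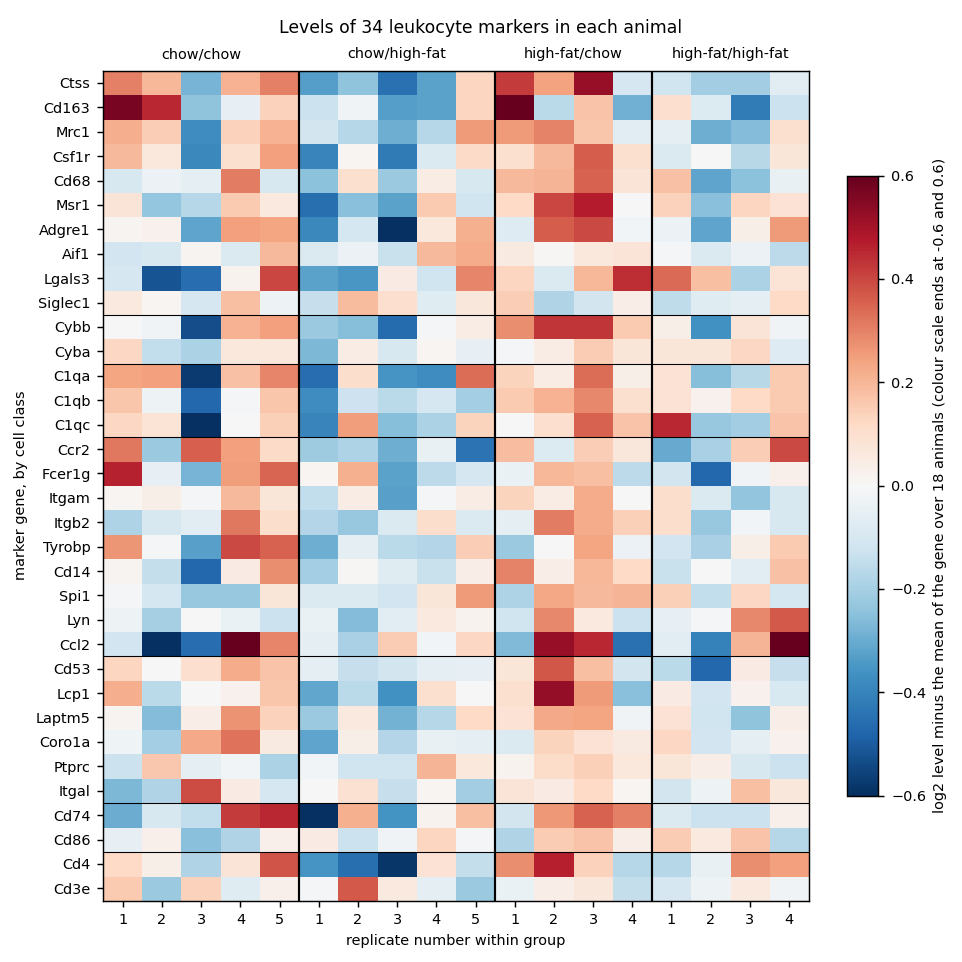
Level of each of the 34 markers (rows, by cell class) in each of the 18 females (columns, by group and replicate number), as the log2 level minus the gene's mean over all animals, with red above and blue below. The colour scale ends at -0.6 and 0.6; high-fat/chow replicate 3 is above the mean in 33 of 34 rows, and chow/chow replicate 3 and chow/high-fat replicate 3 hold the lowest value of 18 in 9 and 7 rows.

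Some animals stood at the extremes of many markers. High-fat/chow replicate 3 had the highest of 18 values in 10 markers, chow/chow replicate 3 the lowest in 9 and chow/high-fat replicate 3 the lowest in 7. Chow/chow replicate 3 was low in many macrophage genes (Mrc1, Csf1r, Ctss, Cybb and the C1q chains) but not in all. Her Cd68 (5.93) and Aif1 (5.81) lay inside the range of the rest of her group, and her Ccr2, at 6.75, was the highest of it. Without her the own-diet median in the chow lineage was -0.17, with 26 of 34 markers lower. Without chow/high-fat replicate 3 it was -0.095, and without high-fat/chow replicate 3 the own-diet median in the high-fat lineage was -0.12. The pooled SD within groups had a median of 0.189 over the markers and 0.136 over all genes, from 0.112 for Cyba to 0.476 for Ccl2.

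The array titles carry a letter and a number (5, 7 or 9), which the labels do not explain. Arrays that share the number are called a well column here, though the labels name no wells. Some pairs of letter and number are repeated among the arrays, so a column is not shown to be a shared batch. Within well column 5 the own-diet median was -0.18 in the chow lineage (26 of 34 lower) and -0.24 in the high-fat lineage (27 of 34). Within column 7 it was 0.16 in the chow lineage, where the only chow-fed animal is chow/chow replicate 3, and -0.028 in the high-fat lineage (1 animal each). Column 9 gave -0.10 in the high-fat lineage. Cd53 was lower on the own high-fat diet in all 5 of these column comparisons, by -0.22 to -0.18, and Ctss in 4 of 5, from -0.59 to 0.094. The grandpaternal median was 0.16, 0.18 and -0.10 within columns 5, 7 and 9 at own chow, and 0.11 and 0.10 within columns 5 and 7 at own high-fat. With the column as a block over all animals 0 markers were called in each of the 7 comparisons.

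Some markers encode chains of 1 protein complex. Pairs of these, and the separate signalling adaptors Tyrobp and Fcer1g, were compared across the 18 females after the group means were removed. The 7 pairs were tested by permutations of animals within groups, with Benjamini-Hochberg over the 7. C1qa and C1qc went together most closely, with Pearson's r 0.90 (permutation p = 0.00079, adjusted 0.00553) and Spearman's rho 0.88 (p = 0.00051, adjusted 0.00357), and r 0.88 without the 2 animals farthest out. Of 12641 other genes, C1qc had the highest r with C1qa. C1qb had r 0.70 with C1qa (p = 0.0171, adjusted 0.0299; rho 0.49, p = 0.0571, adjusted 0.0999; r 0.61 without the 2 farthest animals). With C1qc it had r 0.71 (p = 0.00912, adjusted 0.0213; rho 0.50, p = 0.0448, adjusted 0.0999), which came to 0.36 without the 2 farthest animals, so that this relation rests on them. The signalling adaptors Tyrobp and Fcer1g had r 0.70 (p = 0.00749, adjusted 0.0213; rho 0.63, p = 0.0164, adjusted 0.0574; r 0.59 without the 2 farthest animals).
The remaining pairs were not past the threshold. The oxidase subunits Cybb and Cyba had r 0.46 (permutation p = 0.121, adjusted 0.169; rho 0.41, p = 0.143; r 0.35 without the 2 farthest animals). Itgam and Itgb2 of complement receptor 3 had r 0.31 (permutation p = 0.219, adjusted 0.256; rho 0.25, p = 0.352; r 0.30 without them). Itgal and Itgb2 of the integrin LFA-1 had r 0.069 (permutation p = 0.845, adjusted 0.845; rho 0.15, p = 0.589; r 0.064 without them); Itgal and Itgam are among the dim markers.

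**Figure D4:**
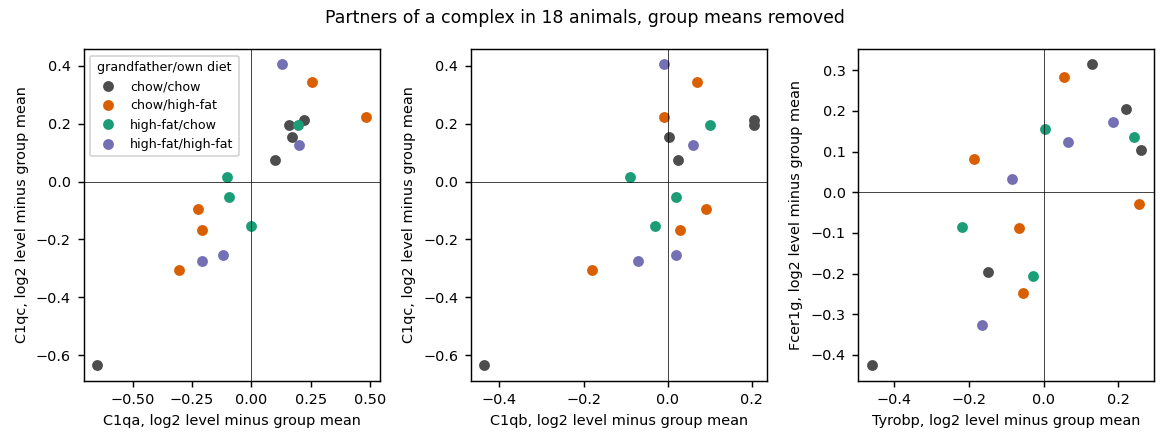
Gene pairs in the 18 females, each point 1 female coloured by group, with log2 levels after the group mean was subtracted on both axes. The title in the picture speaks of a complex, but Fcer1g and Tyrobp encode separate adaptors. From left, C1qc against C1qa (r 0.90), C1qc against C1qb (r 0.71) and Fcer1g against Tyrobp (r 0.70); the point at the lower left of each panel is chow/chow replicate 3.

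Other genes of the same cells were taken from lists outside the 37 markers, and for the own diet 0 genes of any list were called. Of the MHC class II genes 7 of 7 measured read lower (median -0.16), led by RT1-Db1 (-0.22, adjusted p = 0.741 in limma), with RT1-Ba at -0.16 and RT1-Bb at -0.22. Resident macrophage genes were lower in 6 of 7 (median -0.13), among them F13a1, the clotting factor XIII chain (-0.23), Axl, a receptor for dying cells (-0.13), and Lyve1 (-0.19). Lysosomal and secreted products were lower in 6 of 7 (median -0.055), with Gpnmb at -0.33 (adjusted p = 0.333 in limma), Apoe at -0.14 and Grn at -0.12. Of the oxidase's cytosolic partners, Rac2 read -0.15, Ncf1 0.064 and Ncf4 0.0061.

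Further lists were mixed. Leukocyte signalling and cytoskeletal genes were lower in 10 of 16 (median -0.034), led by Nckap1l (-0.14), Arhgdib (-0.34) and Was (-0.11). Fc and pattern receptors were lower in 6 of 10, where the endotoxin receptor Tlr4 read -0.25, Tlr3 0.19 and Tlr7 -0.12. Chemokine and complement receptors were lower in 3 of 6 (Ccr1 -0.19, C3ar1 -0.17, Cxcr4 -0.13), growth factors and chemokines in 6 of 11 (Cxcl1 0.10, Il34 -0.10, Csf1 -0.10), and myeloid transcription factors in 3 of 7 (Irf8 -0.066, Irf5 0.017, Cebpa -0.015). Of the cytokine genes 3 were measured: Tgfb1 (-0.13), Il1b (0.12) and Nos2 (-0.047). T and NK cell genes were lower in 4 of 6 (median -0.0072; Gzmb 0.06, Cd5 0.029, Cd3g -0.027), B cell genes higher in 3 of 3 (Blk 0.12, Pax5 0.15, Cd79b 0.033) and mast cell genes lower in 6 of 7 (Cpa3 -0.20, Kit -0.081, Tpsab1 -0.066). The 1 neutrophil gene measured, Elane, read -0.025.

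Connective tissue genes read lower alongside the leukocyte markers. Fibroblast and matrix genes read lower on the own high-fat diet in 9 of 9 (median -0.20), 4 under an unadjusted p of 0.05 and 0 called, among them Dcn (-0.20), Col1a1 (-0.40) and Col1a2 (-0.36). Over all genes, 51.7% read lower, 3.44% were lower at that limit and 0.0158% were called. Tendon genes were lower in 7 of 7 (median -0.22), with Col14a1 at -0.32, Chad at -0.57 and Thbs4 at -0.40. The summed normalised intensity of the 9 fibroblast genes ran from 7130 to 9660 in chow/chow, 5490 to 8090 in chow/high-fat, 7640 to 9800 in high-fat/chow and 6590 to 7870 in high-fat/high-fat females. That of the 7 tendon genes ran from 2900 to 4320, 1690 to 4740, 2920 to 4530 and 2720 to 3700 in the same order, with none of either list near background. The 34 leukocyte markers summed to 3480 to 4900, 3230 to 4350, 4230 to 5010 and 3700 to 4390. The part of connective tissue in the marker differences was not tested.

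By their medians averaged over lineages, lists of other tissues differed less or in the other direction. Red blood cell genes read higher on the own high-fat diet in 5 of 5 (median 0.21; Slc4a1 0.17, Ahsp 0.21, Hbb 0.24), with a summed intensity of 1660 to 3000, 1260 to 6170, 1650 to 3110 and 1370 to 5700 in the group order above. Fat cell genes were lower in 2 of 6 (Cidea 0.43, Plin1 0.062, Cfd -0.12), endothelial genes in 4 of 5 (Tek -0.11, Tie1 -0.086, Emcn 0.063), vessel wall genes in 2 of 4 (Myh11 0.12, Tagln 0.10, Rgs5 -0.056) and nerve genes in 2 of 4 (Mbp 0.21, S100b -0.10, Pmp22 -0.074). Fast muscle genes were lower in 5 of 5 but by a median of -0.027 (Tnni2 -0.053, Pvalb -0.048, Tnnt3 -0.027), and genes of regenerating muscle and satellite cells in 3 of 5 (Pax7 -0.094, Myog 0.11, Myf5 -0.049). For the slow muscle genes the averaged own-diet median of 0.094 (Tnni1 0.25, Myh7 0.21, Tnnt1 0.14) joined opposite signs: 6 of 6 read lower on the own high-fat diet in the chow lineage (median -0.33) and 6 of 6 higher in the high-fat lineage (median 0.55), with an interaction median of 0.91 and 0 called. For the grandpaternal diet they read lower in the high-fat lineage in 6 of 6 at own chow (median -1.11) and in 3 of 6 at own high-fat (median -0.025). Their sum ran from 6790 to 13400 in chow/chow, 3870 to 13800 in chow/high-fat, 3510 to 10900 in high-fat/chow and 2900 to 11800 in high-fat/high-fat females. The part of fibre type in the marker differences was not tested.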

How the data were processed

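RNA of 18 EDL muscles (200 ng per array) was read on Affymetrix whole-transcript arrays, per the labels' protocols. The deposited table holds linear intensities of 20917 probe sets, which the authors made with Affymetrix Expression Console and PLIER, per the submitters' processing notes; versions and settings are not given in the sources used here. Precision is limited by the number of arrays, which have no read depth. A single symbol was given for 18197 probe sets.

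Here log2(intensity + 16) was quantile-normalized, 1 probe set per gene was kept by highest mean, and means had to exceed the 25th percentile. A model of the 4 group means was fitted with limma 3.58.1 (lmFit, eBayes; R 4.3.3), two-sided, with Benjamini-Hochberg adjustment over 12642 genes in each of 7 comparisons at 0.05; intervals are 95%. The fit was tried on simulated data with independent noise and changes larger than any marker difference. Differences of the size seen in the markers were not simulated. Correlations used 100000 permutations. Log2 differences between arrays of 1 group had an SD of 0.187 or more in all 32 pairs, so none was a copy.

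The members and lists were chosen with earlier results of these data known. Values per animal are given for Cd68, Mrc1, Cd163, Cybb, C1qa, C1qb, C1qc, Itgam, Tyrobp, Ptprc, Cd74, Cd4, Cd3e and the 3 markers of smallest p in each of the 4 comparisons of single groups; of other lists up to 3 genes of smallest p in the averaged own-diet comparison are named. Alternatives were other normalizations, offsets, filters, probe set rules, variance moderation, array weights, groups compared alone, blocks for the well column and for neighbouring animal numbers, the 2 dimmest arrays left out and each array left out. Replicates are numbered in record order, and each array is a separate female per the sample titles.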

Additional observations from a re-analysis of the deposited data

Results flagged for a closer look

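In 8 of 136 tests of a marker within a group, 1 animal stood apart by Dixon's gap test, 5.88%, where chance flags about 1 in 20. Chow/chow replicate 3 was the low animal in 5 of them: Mrc1 at 7.06 log2 (nearest animal 7.57), Csf1r at 7.39 (nearest 7.84), Ctss at 6.97 (nearest 7.45), C1qa at 6.86 (nearest 7.61) and C1qc at 6.11 (nearest 6.82). Cd68 was high in chow/chow replicate 4, at 6.29 (nearest 5.95). Msr1 was low in high-fat/high-fat replicate 2, at 5.61 (nearest 5.95). Spi1 was low in high-fat/chow replicate 1, at 5.36 (nearest 5.74).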

How the results depend on the processing

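No marker was called under 213 of the 214 alternatives run over the 7 comparisons. The exception was the table as deposited for the grandpaternal diet at own high-fat, with 5 markers called (Lcp1, Cyba, Cd4, Lyn and C1qb) and a median of 0.26; there the median of all genes also moved, to 0.18, 1689 genes (13.4%) were called against 0, and only 9.8% of all genes were lower. The interaction median of -0.036 turned sign as deposited (0.17, where the median of all genes was 0.24 and 7.49% were lower) and with the 2 dimmest arrays left out (0.00047), and ran from -0.082 to 0.0032 over single arrays left out (above 0 without chow/high-fat replicate 2, at 0.0012, or high-fat/chow replicate 3). As deposited, the median of all genes moved to -0.13 for the own diet in the chow lineage (89.4% lower) and 0.11 in the high-fat lineage (17.5% lower), where the marker medians were -0.25 and -0.053. The median for the own diet averaged over lineages stayed between -0.20 (offset of 1) and -0.10 (offset of 64), and for the grandpaternal diet averaged over own diets between 0.052 and 0.14 (as deposited, with 27% of all genes lower). Without chow/high-fat replicate 3 the grandpaternal median at own high-fat was 0.041, without chow/high-fat replicate 1 it was 0.045, and without high-fat/high-fat replicate 4 it was 0.046. The adjusted p of Ctss for the own diet ranged from 0.0731 to 0.446 and that of C1qb for the grandpaternal diet from 0.0693 to 0.253 (limma). Counts over all genes varied more: 2 called for the own diet became 0 to 15, and 25 for the grandpaternal diet became 0 to 303 (303 without high-fat/chow replicate 1, 252 with array weights, 0 with the well column as a block). At own high-fat the count for the grandpaternal diet went from 0 to 54 without high-fat/chow replicate 1 and to 56 without high-fat/high-fat replicate 1, and at own chow from 1 to between 0 and 2. The causes were not tested. No paired analysis by replicate number was possible because the titles carry no shared replicate numbers, so neighbouring animal numbers, whose meaning the labels do not give, served as a random block instead (consensus correlation 0.13); with it 0 markers were called in each comparison. Any true difference of a marker near the filter, such as Itgal or Cd86, would be understated.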
